A study of Coryphaena hippurus with 27 samples.

Results

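The effect of slick oil on microRNAs (miRNAs) was compared between 3 stages of mahi-mahi (Coryphaena hippurus), a fast-growing open-ocean fish that spawns in the Gulf of Mexico. Slick oil is weathered crude, skimmed off the Gulf during the Deepwater Horizon spill. The comparison used the 3 count tables that hold slick oil and control libraries, joined by miRNA name, which gave 18 of the 27 libraries of the series. The 9 slick oil libraries came from animals held in seawater with a high-energy water-accommodated fraction (HEWAF, oil blended into seawater) of slick oil, labelled 1 g/l, with 3 libraries each at 24, 48 and 96 hours post fertilisation (hpf). The 9 controls came from animals held without oil (0 g/l), with 3 libraries each at the same stages. The question was whether the slick minus control difference of a miRNA changed between stages, which is the treatment-by-stage interaction.

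All animals came from natural spawns of wild-caught broodstock, with embryos collected within 8 h of a spawn, and all exposures ran in 1 L beakers at 27 °C in 16 h of light and 8 h of dark without renewal of the water. A later stage differs from an earlier one both in age and in the length of exposure, which cannot be told apart. The water was not renewed, and the labels do not say whether the oil in it kept its level between stages. Each library is a pool of 30 whole animals, embryos or larvae, and every library is labelled whole embryo. Nothing in the labels says whether the 3 pools of a group shared a spawn, so p-values measure the spread between these pools. Defining miRNAs of many tissues were counted in every library, among them miR-206 of muscle, miR-9-3p of the nervous system and miR-122-5p of the liver.

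miRNAs are short RNAs that, loaded into Argonaute proteins, pair with messenger RNAs and lower their stability or translation. Many are made in 1 tissue or at 1 stage: in zebrafish miR-430 clears maternal messages from the early embryo, and the let-7 family accumulates as animal tissues mature. In whole animals a lower count of a tissue miRNA can come from fewer cells of that tissue or from less of the miRNA per cell, and these cannot be told apart here. 

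The join held 1023 miRNA names of the 1384 listed in any of the 3 tables, and 691 names passed the filter on low counts and were tested. Several names can stand for 1 mature miRNA and then carry almost the same counts, so names are not independent. Totals of the deposited counts averaged 65384 ± 2875 under slick oil and 67232 ± 7059 in controls at 24 hpf (SD, n = 3 each). At 48 hpf they were 67263 ± 749.7 under slick oil and 74857 ± 9151 in controls. At 96 hpf they were 91344 ± 1791 under slick oil and 69630 ± 6080 in controls, so the 96 hpf slick libraries were the deepest of the 18. Replicate pools differed by a chi-square per degree of freedom of 0.552 to 1.37. Most pairs were under 1, the value that independent sampling of reads would give, so they agreed more closely than that. All slick pairs at 48 hpf were among these, at 0.552, 0.640 and 0.599. Why pools agreed so closely was not tested, and the p-values rest on this spread. Slick replicates 1 and 2 at 24 hpf differed by less than sampling noise (0.620) while each differed more from replicate 3. They were kept as 2 samples, since pairs of other groups were as close and no label joins them, and counting them as 1 sample left 198 names past the joint test below. Levels below are normalised counts per 70000. Effects are log2 fold changes of slick oil over control ± SE, with adjusted p-values from edgeR's quasi-likelihood test. A name passes at an adjusted p under 0.05. Slick and control libraries did not overlap for 49.5% of all names at 24 hpf, 53% at 48 hpf and 66.4% at 96 hpf. A lack of overlap was thus common and does not set a name apart.

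The slick oil effect at 96 hpf differed from that at 24 and 48 hpf for many names, while few names differed between 24 and 48 hpf. The joint test of both interaction terms passed for 286 of 691 names (41.4%), from 74 miRNA numbers (a number is shared by all names of 1 miRNA). Between 24 and 48 hpf the effect differed for 13 names (1.88%), 9 of them higher at 48 hpf (1.3%) and 4 lower (0.579%), and all were names of miR-124, miR-222, miR-181a and let-7a-5p. From 48 to 96 hpf it differed for 235 names (34%), higher for 68 (9.84%) and lower for 167 (24.2%). From 24 to 96 hpf it differed for 230 names (33.3%), higher for 83 (12%) and lower for 147 (21.3%). In the same fit 262 names (37.9%) passed the threshold at 24 hpf, 273 names (39.5%) at 48 hpf and 431 names (62.4%) at 96 hpf. Across the 691 names, effects correlated at a Pearson r of 0.77 between 24 and 48 hpf, 0.69 between 48 and 96 hpf and 0.59 between 24 and 96 hpf. These describe names that share libraries and sequences and carry no test.

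**Figure D1:**
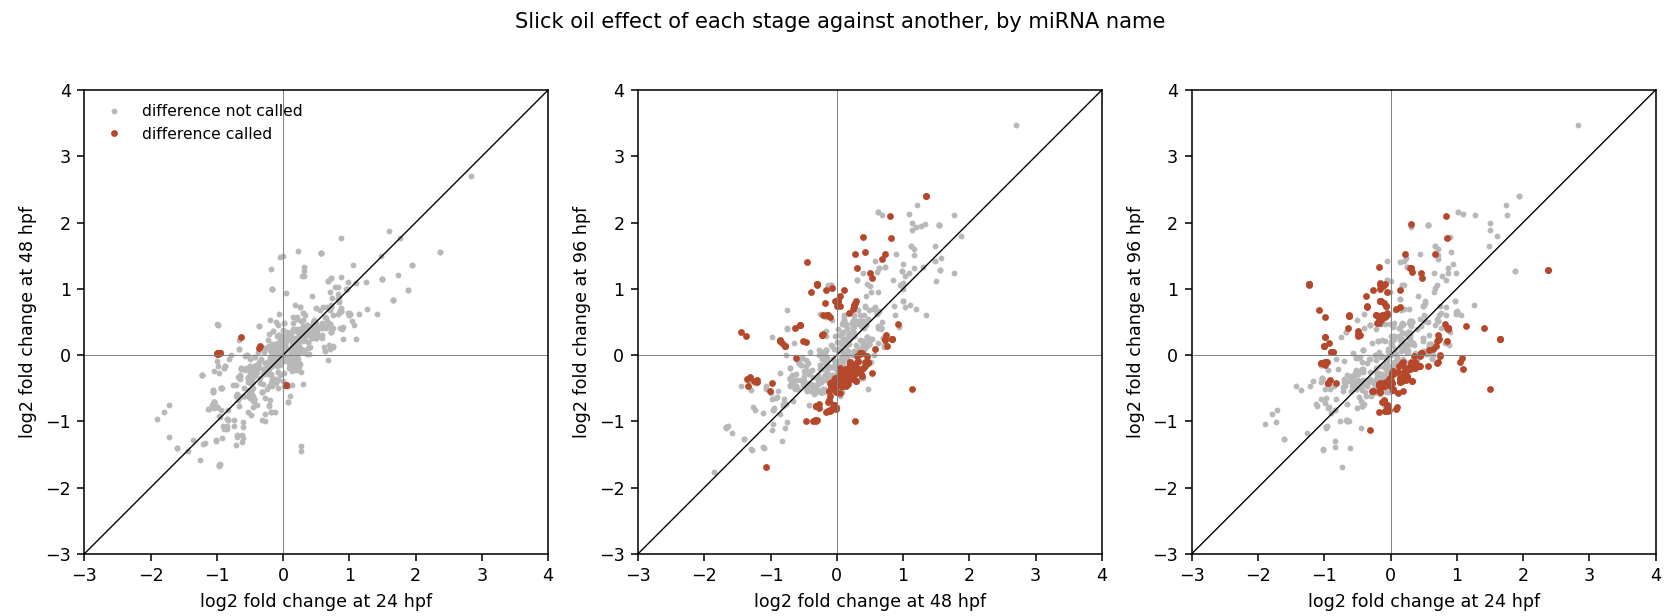
Slick oil effect (log2 fold change over control) of each of 691 miRNA names at one stage against the effect at another, with red points for names whose difference between the stages passed. Red points are few at 24 against 48 hpf (13 names) and many where 96 hpf is on an axis (235 and 230 names).

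The split into higher and lower depended on scaling, and the 96 hpf effect followed abundance. With TMM scaling, which aligns libraries on the bulk of names, all names together had a median effect of -0.03 at 24 hpf, 0.06 at 48 hpf and -0.11 at 96 hpf, and the last was 0.06 when libraries were scaled by total count alone. At 96 hpf the median was 0.18 over names with a mean count under 50, -0.13 over names of 50 to 200, and -0.34 over the 111 names of 200 and over, of which 87 were lower. In that top class the joint test passed for 101 of 111 names, beside 66 of 301 names under 50. The 96 hpf slick libraries were also the deepest, and their highest name took 0.758 to 0.771% of the count, beside 0.989 to 1.01% in 96 hpf controls. The part of this depth gap in the trend was not tested beyond thinning all libraries to the lowest total, after which 179 of 683 names passed the joint test.

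When the trend of effect over abundance was removed within libraries by cyclic loess, 18.2% of names passed the joint test, and 96 names from 36 miRNA numbers passed with both scalings. The difference from 48 to 96 hpf then split into 40 higher and 31 lower names, and scaling by total count alone gave 98 higher and 50 lower. From 24 to 96 hpf the splits were 72 higher and 59 lower with the trend removed, and 151 higher and 51 lower by total count alone. At 96 hpf itself 27.8% of names were higher and 34.6% lower with TMM, and 34.0% higher and 21.0% lower by total count alone. At 24 hpf 20.4% were higher and 17.5% lower with TMM, and 17.5% higher and 23.3% lower by total count alone. At 48 hpf the shares were 23.6% higher and 15.9% lower with TMM, and 17.8% higher and 21.1% lower by total count alone. Which direction prevailed therefore depended on scaling. Most results for single miRNAs are given below with both fits, and the others with TMM scaling alone.

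**Figure D2:**
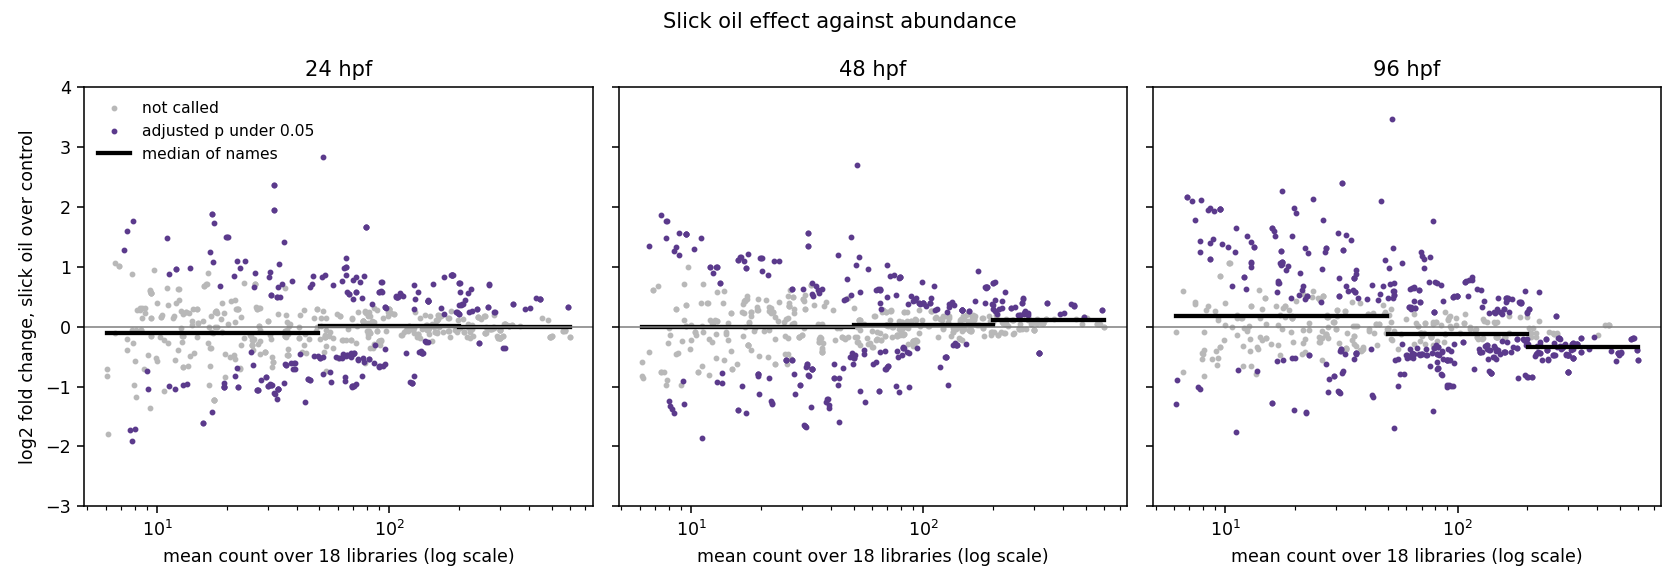
Slick oil effect (log2 fold change over control) against the mean count over 18 libraries (log scale) for 691 names at each stage, with purple points past the threshold and black bars for the median in 3 classes of abundance. The bars lie between -0.10 and 0.10 at 24 and 48 hpf and step down with abundance at 96 hpf, from 0.18 to -0.34.

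Only 24 names from 12 miRNA numbers passed the joint test in every fit that was run. These fits are the test above, 16 alternatives (each where it gave the name a value), 18 fits that left out 1 library each, and the same 18 with the abundance trend removed. The numbers are miR-15, miR-106, miR-122, miR-128, miR-132, miR-181, miR-184, miR-212, miR-430, miR-454, miR-9 and let-7. In the text, let-7g, miR-128a, miR-181a, miR-454b and miR-9-3p were chosen after their values were seen. The plot of normalised counts by library shows 12 of the names. Both let-7g and let-7a-5p are in it, and no name of miR-128 is.

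**Figure D3:**
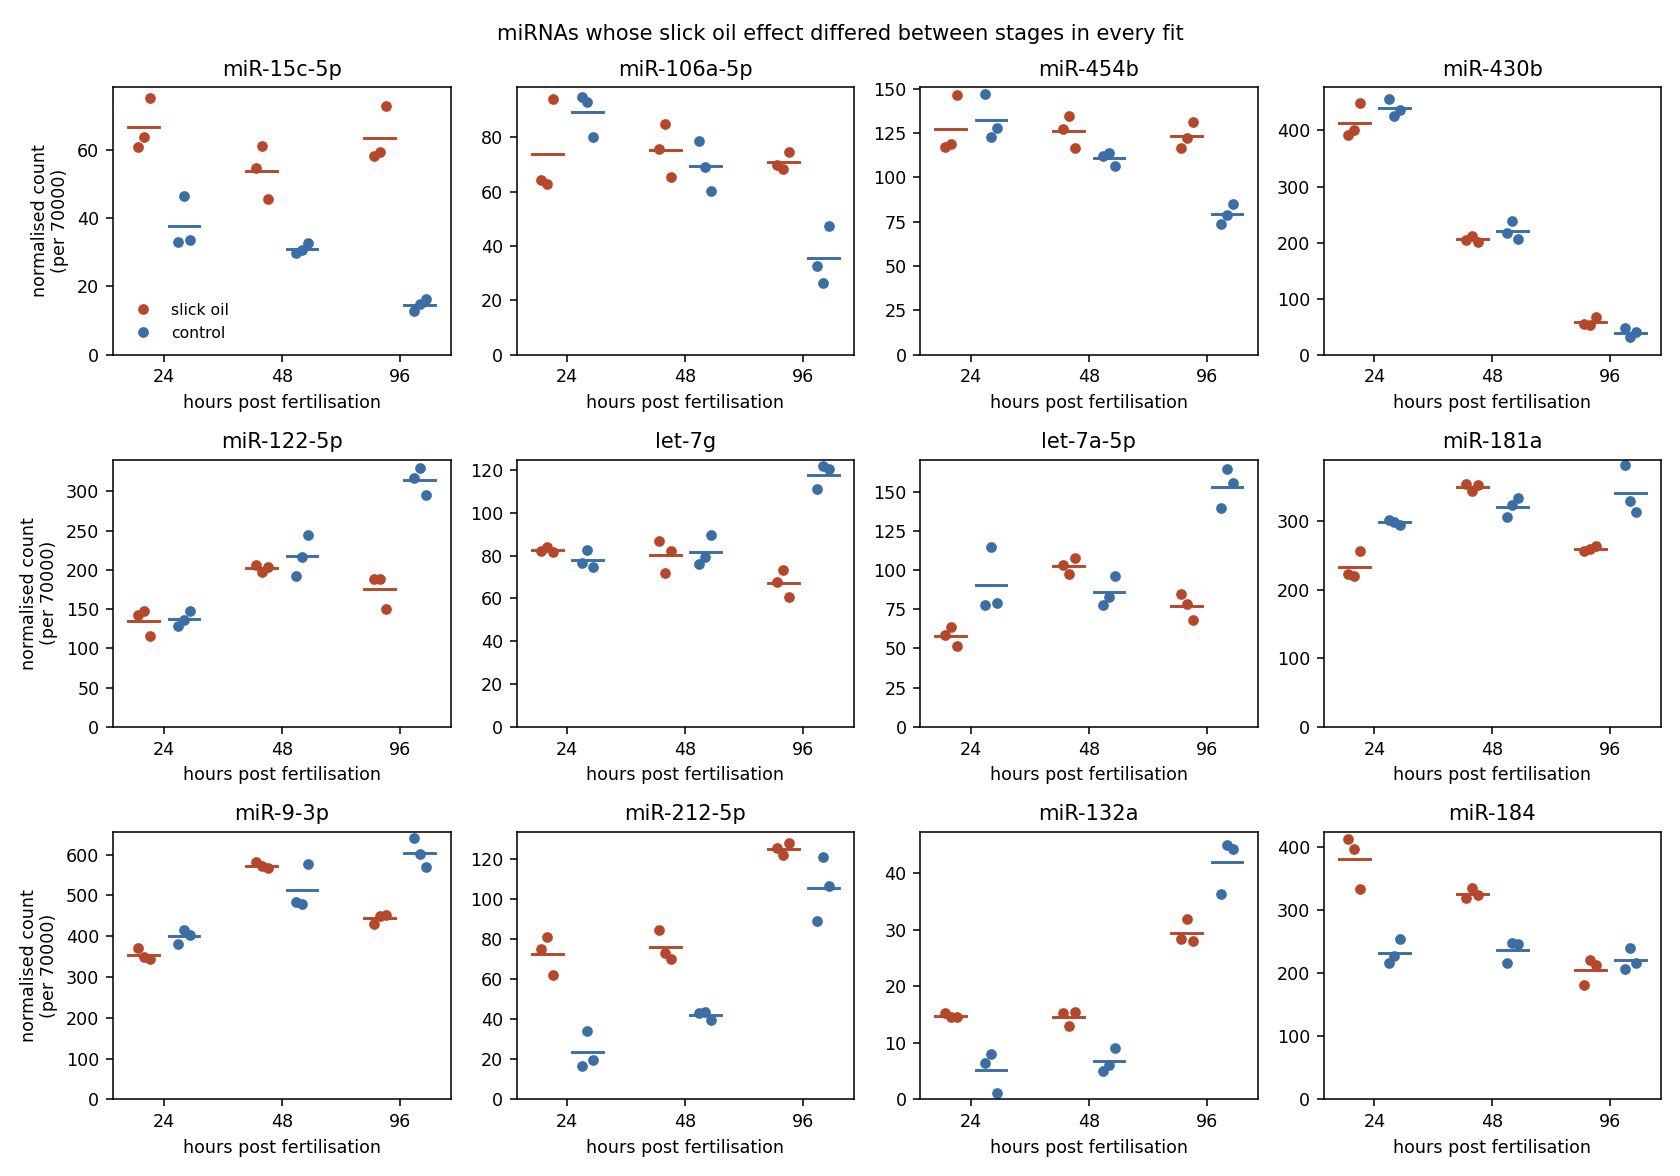
Normalised count per 70000 of 12 miRNAs in each library (points) with group means (bars), slick oil in red to the left of control in blue, at 24, 48 and 96 hpf. In the top row slick oil exceeds control most at 96 hpf, let-7g and miR-122-5p separate from control at 96 hpf only, and miR-132a and let-7a-5p are names that changed company between tables.

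miR-212 and miR-132 are made from 1 primary transcript that in mammals is induced by neuronal activity through the transcription factor CREB. miR-212-5p was higher early and less so later. Its 24 hpf levels were 75.0, 80.7 and 61.7 under slick oil, against 16.4, 34.0 and 19.5 in controls. Its 48 hpf levels were 84.5, 73.1 and 69.9 under slick oil, against 43.2, 43.7 and 39.7 in controls. By 96 hpf the levels were 125, 121.6 and 127.6 under slick oil, against 89.0, 121 and 106 in controls. Slick oil libraries were above all controls of their stage throughout, and the groups came closer with each stage. Effects of 1.66 ± 0.20, 0.84 ± 0.16 and 0.24 ± 0.10, in order of stage, all passed (joint adjusted p = 1.77e-05, 0.000216 with the trend removed). The 96 hpf effect missed the threshold with the trend removed (adjusted p = 0.0507). From 24 to 96 hpf the effect fell by 1.42 ± 0.23 on the log2 scale (adjusted p = 1.77e-05). The related name miR-212a-5p, looked at after its values were seen, ran otherwise, at 0.00 ± 0.43, 1.502 ± 0.28 and 1.12 ± 0.15, of which the first did not pass.

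The names of miR-132 show how a stage difference can follow a name. At 24 hpf miR-132a had levels of 15.2, 14.6 and 14.7 under slick oil, against 6.40, 7.94 and 1.08 in controls. At 48 hpf they were 15.4, 12.9 and 15.5 under slick oil, against 5.09, 6.12 and 9.07 in controls. At 96 hpf they were 28.4, 31.9 and 28.0 under slick oil, against 36.3, 45.1 and 44.4 in controls. Slick values were above control without overlap at the first 2 stages and below it at the last, with effects of 1.49 ± 0.39, 1.14 ± 0.34 and -0.52 ± 0.16 (joint adjusted p = 3.92e-05, 9.91e-05 with the trend removed). The names of the 2 strands, taken after these values were seen, place the turn. miR-132-3p had the same group means as miR-132a at 24 and 48 hpf, and at 96 hpf it stood at 49.5 ± 7.54 under slick oil and 12.2 ± 2.84 in controls, an effect of 1.99 ± 0.25 (adjusted p = 1.17e-09). miR-132-5p stood at 30.6 ± 1.63 under slick oil and 43.6 ± 6.33 in controls at 96 hpf, close to the 29.4 ± 2.13 under slick oil and 41.9 ± 4.90 in controls of miR-132a. The 3p name was higher at every stage and its joint test did not pass (adjusted p = 0.290), nor did that of the 5p name (adjusted p = 0.0615). The name miR-132a thus holds the counts of different names in different tables, and its turn is no evidence that either strand turned.

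Such changes of company were looked for over all 691 names, after the miR-132 values were seen. A name was counted where another name of its miRNA number matched it in all 6 libraries of 1 stage, to within 10% or 3 normalised counts, and differed from it at another stage by over 1.3 times plus 3 in a group mean. This found 29 names of 7 miRNA numbers, of which 11 had passed the joint test and 2, miR-132a and let-7a-5p, had passed it in every fit. Without them 275 of 662 names passed the joint test, and 22 names of 11 numbers passed in every fit. The check sees only names that share their counts with another at 1 stage and part from it at another. Names of both strands that match at every stage escape it, and miR-9-3p below is such a name. The rule by which counts were assigned to names is not given in the sources used here.

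Names of miR-15, miR-106, miR-93, miR-454 and miR-430 had their highest slick oil effect at 96 hpf. miR-15c-5p, of the miR-15 and miR-16 family that restrains the cell cycle in mammalian cells, had the largest effect at 96 hpf among the names that passed in every fit. At 24 hpf its levels were 60.9, 63.9 and 75.3 under slick oil, against 32.9, 46.5 and 33.6 in controls, and at 48 hpf 54.9, 61.3 and 45.5 under slick oil, against 29.7, 30.6 and 32.9 in controls. At 96 hpf they were 58.2, 59.3 and 73.0 under slick oil, against 12.9, 14.7 and 16.4 in controls. The control level was lowest at 96 hpf, while the slick level at 96 hpf lay within the range of the earlier slick libraries. Its effects were 0.84 ± 0.16, 0.80 ± 0.17 and, at 96 hpf, 2.09 ± 0.22 (adjusted p = 5.82e-11), with a joint adjusted p of 0.000363, and 0.00893 with the trend removed. Of 9 tested names of this family 8 passed the joint test with TMM scaling, beside 41.4% of all names. With the trend removed 1 passed, miR-15c-5p, beside 18.2% of all names. All 9 were higher at 96 hpf, beside 27.8% of all names, with a median effect of 0.59, and 0.61 with the trend removed.

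miR-106a-5p and miR-93 belong to the clusters related to miR-17-92, which promote proliferation in mammals. miR-106a-5p levels at 24 hpf were 64.4, 62.7 and 94.2 under slick oil, against 95.0, 93.0 and 80.3 in controls, which overlapped. They overlapped at 48 hpf too, at 75.8, 84.9 and 65.5 under slick oil, against 78.8, 69.0 and 60.1 in controls. At 96 hpf, with levels of 69.7, 68.2 and 74.5 under slick oil, against 32.8, 26.2 and 47.3 in controls, every slick library was above every control. The effect was -0.27 ± 0.14 at 24 hpf and 0.11 ± 0.15 at 48 hpf, neither of which passed, and 0.98 ± 0.18 at 96 hpf (adjusted p = 6.75e-06). The joint adjusted p was 0.000171, and 0.00246 with the trend removed. The name miR-106a, looked at after its values were seen, did not pass the joint test (adjusted p = 0.215). It passed in 7 of 16 alternatives and in 5 of 18 fits that left out a library. With the trend also removed it passed in 16 of those 18. miR-93 followed the same order as miR-106a-5p, with effects of -0.07 ± 0.14, 0.01 ± 0.14 and 0.74 ± 0.16. The last came from levels of 79.6 ± 14.8 under slick oil and 47.6 ± 2.62 in controls. Its joint adjusted p was 0.00429, and 0.0167 with the trend removed. miR-93 lost the call in 2 of the 18 fits that both removed the trend and left out a library. In all, 20 of 50 names of these clusters (40%) passed the joint test, near the 41.4% of all names. With the trend removed 11 of the 50 passed, beside 18.2% of all names, and 6 passed with both scalings. The 50 names did not share a direction. From 24 to 96 hpf the effect was higher for 12 names and lower for 10, beside 12% and 21.3% of all names. From 48 to 96 hpf it was higher for 9 and lower for 8, beside 9.84% and 24.2% of all names.

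miR-454b shares its seed with the miR-130 and miR-301 families. Its 24 hpf levels were 117, 119 and 146.5 under slick oil, against 147, 122.5 and 128.03 in controls, and its 48 hpf levels 127, 134 and 117 under slick oil, against 112, 114 and 107 in controls. At 96 hpf the levels were 116, 122.4 and 131 under slick oil, against 73.7, 78.7 and 84.9 in controls. Slick oil libraries held about the same level at every stage, while the 96 hpf controls were below all earlier controls. The effect at 96 hpf was 0.63 ± 0.10 (adjusted p = 2.55e-06), beside -0.06 ± 0.10 at 24 hpf and 0.18 ± 0.10 at 48 hpf that did not pass (joint adjusted p = 0.000818, 0.000392 with the trend removed).

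The miR-430 family split at 96 hpf. For miR-430b, most abundant at 24 hpf in both groups, the 24 hpf levels were 391, 401 and 449 under slick oil, against 456, 425 and 437 in controls. Levels at 48 hpf were 204.2, 211.7 and 201 under slick oil, against 217.8, 238 and 206.4 in controls. At 96 hpf they were 54.1, 53.4 and 67.1 under slick oil, against 46.8, 30.4 and 40.5 in controls. Groups overlapped at the first 2 stages, and at 96 hpf the lowest slick value was above the highest control value. The effect was -0.09 ± 0.07, -0.11 ± 0.08 and 0.57 ± 0.16 at 24, 48 and 96 hpf, and passed at 96 hpf alone (adjusted p = 0.00230; joint adjusted p = 0.00658, 0.00280 with the trend removed). miR-430d gave -0.09 ± 0.07, -0.13 ± 0.08 and 0.60 ± 0.16 (joint adjusted p = 0.00398). At 48 hpf the slick libraries of miR-430d were all below control. Both names were also called lower with the trend removed, at 24 hpf with effects of -0.16 and -0.15, and at 48 hpf with -0.22 for miR-430b (adjusted p = 0.04999) and -0.23 for miR-430d (adjusted p = 0.0241). Of 8 tested names of the family 3 passed the joint test in each fit, beside 41.4% and 18.2% of all names. These were miR-430b, miR-430c-3p and miR-430d, the 3 names that were higher at 96 hpf. The names miR-430, miR-430a and miR-430a-3p were lower there, at -0.33 ± 0.10, -0.28 ± 0.11 and -0.32 ± 0.11, with joint adjusted p-values of 0.111, 0.124 and 0.157.

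miR-122-5p, let-7g and miR-128a were, with TMM scaling, called lower at 96 hpf alone. miR-122-5p, the main miRNA of hepatocytes, had 24 hpf levels of 142.9, 148 and 115 under slick oil, against 127.9, 136 and 148 in controls. Its 48 hpf levels were 206.4, 198 and 203.2 under slick oil, against 191.5, 216.7 and 244 in controls. At 96 hpf the levels were 189, 188 and 149.8 under slick oil, against 317, 329 and 295 in controls. Groups overlapped until 48 hpf and were far apart at 96 hpf, where each control exceeded every earlier control and the slick level did not exceed that of 48 hpf. The effect was -0.02 ± 0.12, -0.09 ± 0.09 and -0.83 ± 0.08 in order of stage, the last with an adjusted p of 4.81e-10 (joint adjusted p = 1.41e-05, 0.00688 with the trend removed). With the trend removed the 96 hpf effect was -0.63 (adjusted p = 7.90e-08). The scarce other strand, miR-122-3p, went the other way at 96 hpf, at 20.6 ± 5.87 under slick oil and 5.31 ± 0.517 in controls (1.94 ± 0.32, adjusted p = 3.76e-07), and its joint test did not pass (0.119). Over the 20 tested names of the liver and gut list 8 were higher and 8 lower at 96 hpf, beside 27.8% and 34.6% of all names. miR-194a-5p, of a liver and gut miRNA, was lower at 24 hpf, at 48.4 ± 3.30 under slick oil and 68.0 ± 3.74 in controls (-0.49 ± 0.14, adjusted p = 0.00865), and above control at 96 hpf, with 85.0 ± 6.89 under slick oil and 67.9 ± 6.09 in controls (0.32 ± 0.11, adjusted p = 0.0218). Its joint test passed with both scalings (0.00198 and 0.0272), but with the trend removed the 24 hpf effect of -0.30 did not pass.

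Among the let-7 family, let-7g had 24 hpf levels of 82.0, 84.0 and 81.6 under slick oil, against 76.7, 82.8 and 74.9 in controls, and 48 hpf levels of 86.7, 72.0 and 82.2 under slick oil, against 76.3, 79.5 and 89.6 in controls. At 96 hpf they were 67.7, 73.4 and 60.5 under slick oil, against 111, 121.7 and 121 in controls. The slick level at 96 hpf averaged below that of the earlier stages, whereas all 96 hpf controls were above every earlier control. The effect was 0.08 ± 0.11 and -0.02 ± 0.11 at the first 2 stages and -0.81 ± 0.10 at 96 hpf (adjusted p = 8.93e-09; joint adjusted p = 1.63e-05, 9.91e-05 with the trend removed). Of 27 tested names 13 passed the joint test and 6 did with the trend removed, beside 41.4% and 18.2% of all names. At 96 hpf 12 of them were lower and none was higher, beside 34.6% lower and 27.8% higher over all names. At 24 hpf 11 were lower and 2 higher, beside 17.5% lower and 20.4% higher over all names.

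let-7a-5p was lower at 24 and at 96 hpf but not between, and it is the other name that changed company. Its 24 hpf levels were 58.6, 63.9 and 51.3 under slick oil, against 77.7, 115 and 79.2 in controls, and its 96 hpf levels 84.6, 78.6 and 67.9 under slick oil, against 139, 165 and 155.4 in controls. At 48 hpf they were 103, 97.8 and 108 under slick oil, against 78.0, 83.0 and 96.4 in controls, with each slick value above each control. The effect was -0.63 ± 0.15, 0.28 ± 0.12 and -0.99 ± 0.11, and the difference of 0.91 ± 0.19 between 48 and 24 hpf passed (adjusted p = 0.0199). At 48 hpf itself the effect did not pass (adjusted p = 0.0680). The name let-7a, looked at after these values were seen, had nearly the same levels at 24 hpf, at 58.3 ± 7.94 under slick oil and 92.7 ± 18.9 in controls, and at 96 hpf, at 77.0 ± 8.47 under slick oil and 153.1 ± 12.9 in controls. At 48 hpf, however, let-7a stood at 74.4 ± 3.50 under slick oil and 97.0 ± 15.3 in controls, an effect of -0.36 ± 0.13, and its difference between 48 and 24 hpf did not pass (adjusted p = 0.575). At 96 hpf the 2 names had equal group means. Of the 27 names of the family let-7a-5p alone passed for the difference between 48 and 24 hpf.

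The neuronal miR-128a, which is enriched in the vertebrate brain, overlapped control at 24 hpf. At 24 hpf the levels were 220.3, 217.3 and 168 under slick oil, against 207, 229 and 203.98 in controls, and at 48 hpf 206.4, 226 and 232 under slick oil, against 243, 233 and 253 in controls. At 96 hpf they were 133.3, 132.02 and 134 under slick oil, against 249, 257 and 213 in controls, the tightest group of slick values of this miRNA and well below control. Its effect was -0.08 ± 0.09, -0.13 ± 0.08 and -0.84 ± 0.09 (joint adjusted p = 1.63e-05, 0.0140 with the trend removed). At 48 hpf all slick libraries were already below all controls, though that effect did not pass with TMM scaling. It passed with the trend removed, at -0.25 (adjusted p = 0.00776), beside -0.62 at 96 hpf. miR-128b-3p had the same counts in all libraries and is not a second observation.

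miR-181a and miR-9-3p gave a pattern that depended in part on scaling. miR-181a, known from lymphocytes in mouse and from brain and retina in zebrafish, had 24 hpf levels of 222.6, 219.6 and 256 under slick oil, against 302, 298 and 295 in controls. Its 48 hpf levels were 355, 344 and 353 under slick oil, against 307, 323 and 333 in controls. Its 96 hpf levels were 257, 259.6 and 263 under slick oil, against 382, 329 and 314 in controls. Slick values were below control at 24 and 96 hpf and above it at 48 hpf, with no overlap at any stage. The effect was -0.36 ± 0.08 (adjusted p = 0.000539), 0.13 ± 0.07, which did not pass, and -0.39 ± 0.07 (adjusted p = 1.70e-05). With the trend removed it was -0.47, -0.01 and -0.11, of which the first alone passed. The difference from 24 to 48 hpf passed in both fits, at 0.49 ± 0.11 (adjusted p = 0.0199) and 0.46 (adjusted p = 0.0242).

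miR-9-3p, of a miRNA that acts in neural progenitors, had levels of 355 ± 14.8 under slick oil and 400.0 ± 18.3 in controls at 24 hpf. At 48 hpf the levels were 573 ± 7.44 under slick oil and 513 ± 54.8 in controls, and at 96 hpf 444 ± 12.96 under slick oil and 603 ± 36.0 in controls. Its effect was -0.17 ± 0.08, which did not pass, 0.17 ± 0.07 (adjusted p = 0.0450) and -0.44 ± 0.07 (adjusted p = 7.71e-07), and the joint test passed (adjusted p = 2.54e-05). Removal of the trend made the effects -0.30, 0.02 and -0.08 (joint adjusted p = 0.0112), so that the deficit was called at 24 hpf rather than at 96 hpf.

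Several miRNAs were changed mostly at 24 hpf. miR-124a-3p, the most neuron-specific of vertebrate miRNAs, had levels of 19.9, 17.9 and 31.4 under slick oil, against 45.7, 51.0 and 44.5 in controls at 24 hpf. At 48 hpf the levels were 46.1, 54.8 and 43.3 under slick oil, against 40.7, 52.4 and 48.8 in controls, and at 96 hpf 111, 108 and 97.4 under slick oil, against 119, 108 and 116 in controls. Slick libraries lay below all controls at 24 hpf and overlapped them at both later stages. The effect was -1.01 ± 0.20 at 24 hpf (adjusted p = 0.000104), 0.03 ± 0.15 at 48 hpf and -0.12 ± 0.10 at 96 hpf, and it was lower at 24 hpf than at either other stage in both fits (joint adjusted p = 0.00223, 0.0192 with the trend removed). In the authors' deposited table the 24 hpf effect was smaller, at -0.77 (adjusted p = 0.0367). A chi-square test, made here, of whether the deposited effects differed between stages did not pass. What smaller deposited effects do to that comparison was not tested. With TMM scaling all 6 names that were lower at 24 hpf than at both later stages were names of miR-124. With the trend removed 13 names had this order, the same 6 among them. Of 89 tested names of the neuronal list 38 passed the joint test (41.4% of all names did). With the trend removed 24 passed (18.2% of all names did), and 23 passed in both.

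miR-184, known from lens, cornea and other epithelia, moved the other way. Its 24 hpf levels were 412, 398 and 334 under slick oil, against 216.5, 228 and 254 in controls. Its 48 hpf levels were 319, 335 and 324 under slick oil, against 216.98, 247 and 246 in controls, and at 96 hpf they were 181, 221.8 and 213 under slick oil, against 207, 240.3 and 216.2 in controls. Slick oil exceeded control without overlap until 48 hpf, and the groups overlapped at 96 hpf. The effect was 0.71 ± 0.09 (adjusted p = 2.67e-08), 0.47 ± 0.09 (adjusted p = 5.21e-05) and -0.11 ± 0.09, which did not pass. It decreased by 0.82 ± 0.12 on the log2 scale from 24 to 96 hpf, and by 0.46 with the trend removed (adjusted p = 1.77e-05 and 0.00210).

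miR-125a-5p, a vertebrate relative of the worm timing miRNA lin-4, was higher under slick oil at 24 hpf, at 39.5 ± 4.99 under slick oil and 23.6 ± 4.45 in controls (0.75 ± 0.21, adjusted p = 0.00322). The effect was 0.12 ± 0.11 at 48 hpf and -0.02 ± 0.09 at 96 hpf, which did not pass. It too changed company: at 24 hpf miR-125a stood at 49.98 ± 3.28 under slick oil and 42.0 ± 1.65 in controls, while at both later stages the 2 names matched. The joint call (adjusted p = 0.0201) was lost in 10 of the 18 fits that left out a library, and held in 6 of 15 alternatives. miR-365 was higher at all stages and most at 24 hpf, where the levels were 60.9, 75.1 and 58.6 under slick oil, against 14.6, 6.80 and 15.2 in controls. The effect was 2.37 ± 0.24, 1.56 ± 0.22 and 1.29 ± 0.22, with a joint adjusted p of 0.0211. That call was lost in 7 of the 18 fits that left out a library. It held in 9 of 15 alternatives, trend removal among them, and was lost with DESeq2, by total count alone and after thinning, among others.

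The red blood cell miRNAs miR-144 and miR-451 come from 1 cluster, and miR-451 is cut by Argonaute 2 instead of Dicer. Their slick oil effects had opposite signs at 96 hpf. miR-144 had 24 hpf levels of 12.9, 10.1 and 13.6 under slick oil, against 20.1, 17.01 and 18.4 in controls. At 48 hpf they were 92.2, 95.7 and 99.9 under slick oil, against 203.4, 221.1 and 186 in controls, and at 96 hpf 37.2, 34.1 and 33.2 under slick oil, against 77.3, 96.5 and 102 in controls. Slick values were below control without overlap at each stage, with effects of -0.60 ± 0.28, -1.09 ± 0.09 and -1.41 ± 0.13, the first of which did not pass (adjusted p = 0.110). The joint test of miR-144 did not pass (adjusted p = 0.0975), but it did with the trend removed (0.0411). This was the only 1 of 16 alternatives in which it passed. The call was lost in 12 of the 18 fits that also left out a library. The other strand, miR-144-5p, gave -0.74 ± 0.37, -1.07 ± 0.12 and -1.69 ± 0.17 and its joint test passed in both (adjusted p = 0.0293 and 0.0119), though 17 of the 18 fits that left out a library lost the call with TMM scaling.

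miR-451-5p was scarce at 24 hpf, with levels of 2.34, 0.00 and 3.14 under slick oil, against 2.74, 6.80 and 4.34 in controls. At 48 hpf the levels were 8.78, 14.0 and 8.88 under slick oil, against 14.4, 14.9 and 9.07 in controls, and at 96 hpf 31.1, 44.5 and 47.95 under slick oil, against 18.7, 22.03 and 17.4 in controls. Groups overlapped until 48 hpf, and at 96 hpf all slick libraries were above control, where miR-144 was below. The effect at 96 hpf was 1.08 ± 0.22 (adjusted p = 3.46e-05), beside -1.22 ± 0.74 at 24 hpf and -0.31 ± 0.34 at 48 hpf, which did not pass. The joint adjusted p was 0.00273, and 0.0318 with the trend removed, a call that was lost in 12 of the 18 fits that also left out a library and after thinning. At 96 hpf 4 of the 7 tested names of the red blood cell list were higher, all of them miR-451. The other 3 were lower, all of them miR-144. Over all names 27.8% were higher and 34.6% lower. The miR-451 names had the same or nearly the same counts in all libraries and are not separate observations. None of the 12 tested names of the white blood cell list passed the joint test, beside 41.4% of all names. With the trend removed 1 of them passed, beside 18.2% of all names.

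miR-219 and miR-203b-5p had their largest effect at 48 hpf. miR-219, which drives differentiation of myelinating glia, had levels of 32.1 ± 3.999 under slick oil and 49.2 ± 3.31 in controls at 24 hpf. The 48 hpf levels were 31.7 ± 3.91 under slick oil and 78.3 ± 9.38 in controls, and at 96 hpf 17.1 ± 4.22 under slick oil and 21.9 ± 5.69 in controls. The effect was -0.61 ± 0.18 (adjusted p = 0.00591), -1.32 ± 0.17 (adjusted p = 3.68e-08) and -0.34 ± 0.23, which did not pass (joint adjusted p = 0.00914, 0.0226 with the trend removed). With the trend removed the 24 hpf effect of -0.43 did not pass (adjusted p = 0.0663). The chi-square test of stages on the authors' deposited effects, which were -0.49, -1.14 and -0.23, did not pass for this name. Other names of miR-219 were looked at after their values were seen. With TMM scaling miR-219-5p, miR-219a-5p, miR-219b-5p and miR-219c-5p passed the joint test (adjusted p = 0.00914, 0.0463, 0.0293 and 0.0215). The names miR-219a (0.498), miR-219b (0.480) and those of the 3p strand did not. miR-203b-5p, of the keratinocyte miRNA miR-203, was lower at 48 hpf alone, at 28.4 ± 7.53 under slick oil and 51.0 ± 8.36 in controls (-0.86 ± 0.20, adjusted p = 0.000635), with effects of -0.13 ± 0.17 at 24 hpf and 0.22 ± 0.20 at 96 hpf. Its joint test passed in both fits (0.00659 and 0.0185). Other names of miR-203, looked at after their values were seen, ran otherwise. The joint test of miR-203, miR-203a-3p and miR-203b-3p did not pass with TMM scaling (adjusted p = 0.117, 0.0839 and 0.0920). With the trend removed these names passed in all 18 fits that left out a library.

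miR-222a-3p, made in endothelium and dividing cells of mammals, overlapped control at 24 hpf and was lower afterwards. The levels were 373 ± 70.5 under slick oil and 358 ± 43.2 in controls at 24 hpf. They were 289 ± 14.8 under slick oil and 395 ± 6.67 in controls at 48 hpf and 186 ± 6.03 under slick oil and 267 ± 29.2 in controls at 96 hpf. The effect was 0.04 ± 0.09, -0.45 ± 0.09 and -0.52 ± 0.10 (joint adjusted p = 0.00223, 0.0185 with the trend removed). The call was lost when slick replicates 1 and 2 at 24 hpf were counted as 1 sample. The 4 names whose effect was higher at 24 hpf than at both later stages were all names of miR-222, and with the trend removed no name had this order. The 96 hpf effect of miR-222a-3p was then -0.24 and missed the threshold (adjusted p = 0.0518).

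**Figure D4:**
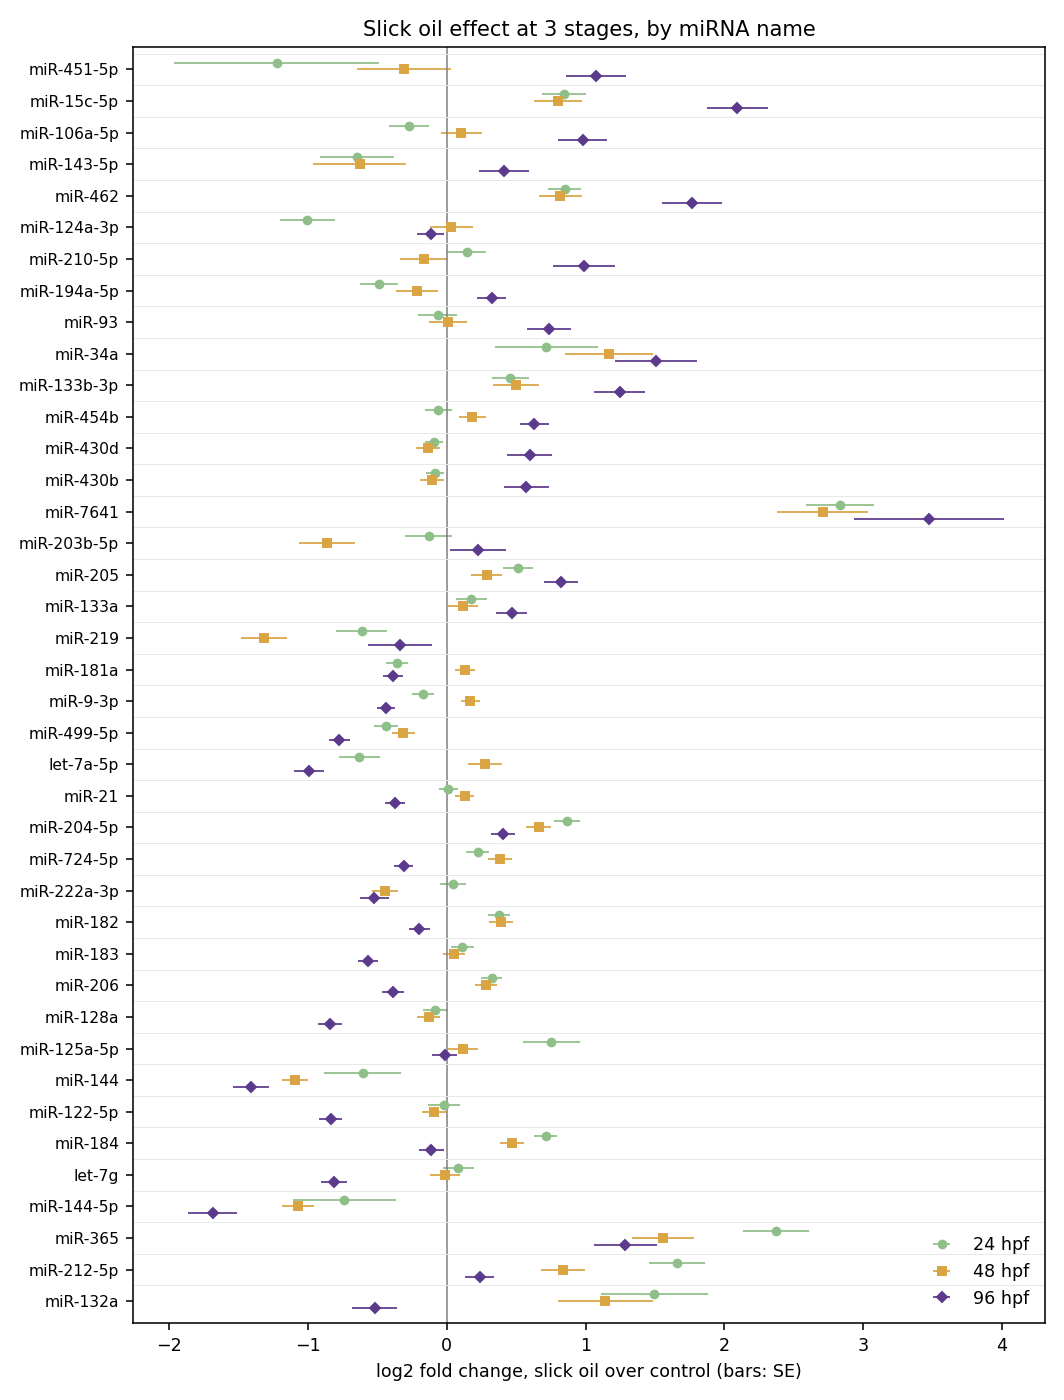
Slick oil effect (log2 fold change over control, TMM scaling) of 40 miRNA names at 24 hpf (green), 48 hpf (orange) and 96 hpf (purple), with bars of 1 SE, ordered by how the 96 hpf effect compares with that of 24 hpf. At the top are names highest at 96 hpf, such as miR-15c-5p at 2.09, and at the bottom those lowest at 96 hpf relative to 24 hpf, such as miR-132a, a name that changed company, at -0.52.

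Muscle miRNAs did not share a pattern. miR-133b-3p was higher at every stage and most at 96 hpf, with levels of 109 ± 27.1 under slick oil and 79.7 ± 5.66 in controls at 24 hpf. The levels were 65.6 ± 7.87 under slick oil and 45.9 ± 5.69 in controls at 48 hpf and 74.4 ± 5.74 under slick oil and 31.3 ± 6.24 in controls at 96 hpf. The effect was 0.46 ± 0.13, 0.50 ± 0.17 and 1.25 ± 0.18 (joint adjusted p = 0.00982, 0.0411 with the trend removed), and the call with the trend removed was lost in 10 of 18 fits that left out a library. miR-133a gave 0.18 ± 0.11, 0.12 ± 0.11 and 0.47 ± 0.11, with a joint adjusted p of 0.138, and 0.0180 with the trend removed. Its joint test passed in 12 of 16 alternatives and in 11 of 18 fits that left out a library. In the latter the adjusted p lay between 0.000285 and 0.145. miR-206 was raised at 24 hpf, with 775 ± 52.3 under slick oil and 621 ± 55.4 in controls (0.32 ± 0.08), and lower at 96 hpf, at 396 ± 17.02 under slick oil and 518 ± 26.5 in controls (-0.39 ± 0.08), and its joint test passed (adjusted p = 1.41e-05). With the trend removed the 96 hpf effect was 0.01 and the joint test did not pass (0.0934). Of 35 tested muscle names 18 (51.4%) passed the joint test, beside 41.4% of all names. With the trend removed 9 passed, beside 18.2% of all names, and 1 name was in both. The heart and slow muscle miRNA miR-499-5p was lower at each stage, at -0.44 ± 0.09, -0.31 ± 0.08 and -0.77 ± 0.08, and its joint call (adjusted p = 0.0113) was lost with the trend removed (0.469) and in 17 of the 18 fits that left out a library.

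miR-183 and miR-182, made in hair cells and photoreceptors, did not pass once the abundance trend was removed. The joint test passed for miR-183, with effects of 0.11 ± 0.08, 0.05 ± 0.08 and -0.57 ± 0.07 (adjusted p = 1.41e-05), and for miR-182, with 0.38 ± 0.08, 0.39 ± 0.08 and -0.20 ± 0.08 (6.86e-05). Neither passed with the trend removed (0.109 and 0.300), when the 96 hpf effects were -0.21 and 0.10. The broadly expressed miR-21 was lower at 96 hpf, at -0.37 ± 0.07 (joint adjusted p = 0.000549), and did not pass with the trend removed (0.706). miR-204-5p, of the eye, was higher at each stage, at 0.87 ± 0.09, 0.66 ± 0.09 and 0.41 ± 0.09, but with the trend removed its effect was 0.79, 0.55 and 0.60 and did not differ detectably by stage (0.314).

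Of the 7 tested names of the list linked to low oxygen 3 were higher at 96 hpf, a share not far from the 27.8% of all names, and none was lower. At 48 hpf 2 of them were higher and 2 lower, beside 23.6% and 15.9% of all names. miR-462, which belongs to a cluster of bony fish that responds to hypoxia and to virus infection, had levels of 162, 175 and 142.3 under slick oil, against 77.7, 103 and 86.8 in controls at 24 hpf. At 48 hpf the levels were 85.6, 82.8 and 84.4 under slick oil, against 48.3, 47.2 and 47.6 in controls, and at 96 hpf 59.5, 55.6 and 87.1 under slick oil, against 18.7, 17.8 and 22.2 in controls. No slick library overlapped a control at any stage, and the ratio was widest at 96 hpf. The effect was 0.85 ± 0.12, 0.82 ± 0.16 and 1.76 ± 0.22 (joint adjusted p = 0.00508), and the joint test missed the threshold with the trend removed (0.0556). miR-210-5p, of a miRNA induced by hypoxia-inducible factor in mammals, gave 0.14 ± 0.14, -0.16 ± 0.17 and 0.99 ± 0.22, of which the last passed, from levels of 38.7 ± 6.66 under slick oil and 19.1 ± 4.36 in controls (joint adjusted p = 0.00359, 0.0238 with the trend removed, when the 24 hpf effect of 0.36 passed too). In this list 5 names passed the joint test, and 1 did with the trend removed, beside 41.4% and 18.2% of all names. The name miR-210 passed with TMM scaling alone (joint adjusted p = 0.0464) and overlapped control at 24 hpf. Its 48 hpf levels were 37.3, 48.4 and 36.6 under slick oil, against 57.6, 55.9 and 55.6 in controls, all below control. At 96 hpf they were 48.0, 51.9 and 42.1 under slick oil, against 41.0, 42.0 and 41.5 in controls.

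In epithelia, miR-205 was higher at each stage and least so at 48 hpf, with levels of 149 ± 23.7 under slick oil and 105 ± 4.95 in controls at 24 hpf. They were 126.3 ± 12.7 under slick oil and 104 ± 4.07 in controls at 48 hpf and 118 ± 9.78 under slick oil and 67.1 ± 13.8 in controls at 96 hpf. The effect was 0.51 ± 0.11, 0.29 ± 0.11 and 0.82 ± 0.12 (joint adjusted p = 0.0302, 0.0162 with the trend removed, when the 48 hpf effect of 0.22 did not pass). miR-143-5p, from the gene of a smooth muscle miRNA, was lower at 24 hpf (-0.64 ± 0.27) and higher at 96 hpf (0.41 ± 0.18), and its joint call (adjusted p = 0.00853) was lost with the trend removed (0.0834). miR-724-5p was higher at 24 hpf (0.22 ± 0.08) and 48 hpf (0.38 ± 0.09) and lower at 96 hpf (-0.31 ± 0.07), with a joint adjusted p of 1.72e-05, and 0.0320 with the trend removed, when the effects of 0.14 at 24 hpf and -0.10 at 96 hpf did not pass.

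In all, 34 names from 15 miRNA numbers (4.92%) were called in opposite directions at 2 stages, 26 of them higher at 24 or 48 hpf and lower at 96 hpf, and 8 the reverse. No name turned between 24 and 48 hpf. With the trend removed 8 names turned, and the name common to both counts was miR-132a, whose company changed. The other 7 were names of miR-203, miR-430b and miR-430d. The count with TMM scaling was 17 when slick replicates 1 and 2 at 24 hpf were counted as 1 sample, and it lay between 11 and 35 when 1 library was left out.

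Some of the widest effects showed no detectable dependence on stage. miR-7641, listed as a miRNA but disputed as a possible piece of ribosomal RNA, had levels of 137.1, 158 and 169.5 under slick oil, against 20.1, 29.5 and 16.3 in controls at 24 hpf. At 48 hpf they were 67.0, 69.9 and 85.5 under slick oil, against 11.0, 15.7 and 5.67 in controls, and at 96 hpf 46.7, 66.8 and 31.0 under slick oil, against 1.17, 7.34 and 3.86 in controls. Every slick library was several-fold above every control of its stage, and the level was lower at each later stage in both groups. The effect was 2.83 ± 0.25, 2.71 ± 0.33 and 3.47 ± 0.54, and the joint test did not pass (adjusted p = 0.558). The difference between 96 and 24 hpf was 0.64 ± 0.59, little larger than its SE, so a change with stage is neither shown nor excluded. miR-34a, a target of p53 in mammals, gave 0.72 ± 0.37, 1.17 ± 0.32 and 1.51 ± 0.30, of which the last 2 passed, and its joint test did not pass (adjusted p = 0.381). In total 61 names from 24 numbers were higher at all 3 stages, of which 24 names passed the joint test, and 44 names from 18 numbers were lower at all 3 stages, of which 9 passed.

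The lists of miRNAs were read against the share over all names, 41.4% with TMM scaling and 18.2% with the trend removed. Skin and epithelium had 18 of 31 names past the joint test and 17 with the trend removed, 9 of them in both. For liver and gut the counts were 11 and 7 of 20, with 7 in both. Red blood cells had 5 of 7 and 6 with the trend removed, and their miR-451 names carry almost the same counts. The group of miR-99, miR-100 and miR-125 had 4 of 23 and 7 with the trend removed. By contrast, pancreas and endocrine cells fell to 0 of 23 with the trend removed, against 12 with TMM, skeleton and connective tissue to 0 of 20, against 9, and the Hox cluster miRNAs to 0 of 23, against 12. The eye and sensory organ list had 14 of 22 and 5 with the trend removed, vessels and smooth muscle 20 of 53 and 8, and glia 5 of 17 and 2. Of the names with miRNA numbers of 1000 and above, 3 of 19 passed and none did with the trend removed, and of the 4 names of the miR-34 family none passed in either fit. These counts describe the lists, whose names share sequences, and no list was tested.

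**Figure D5:**
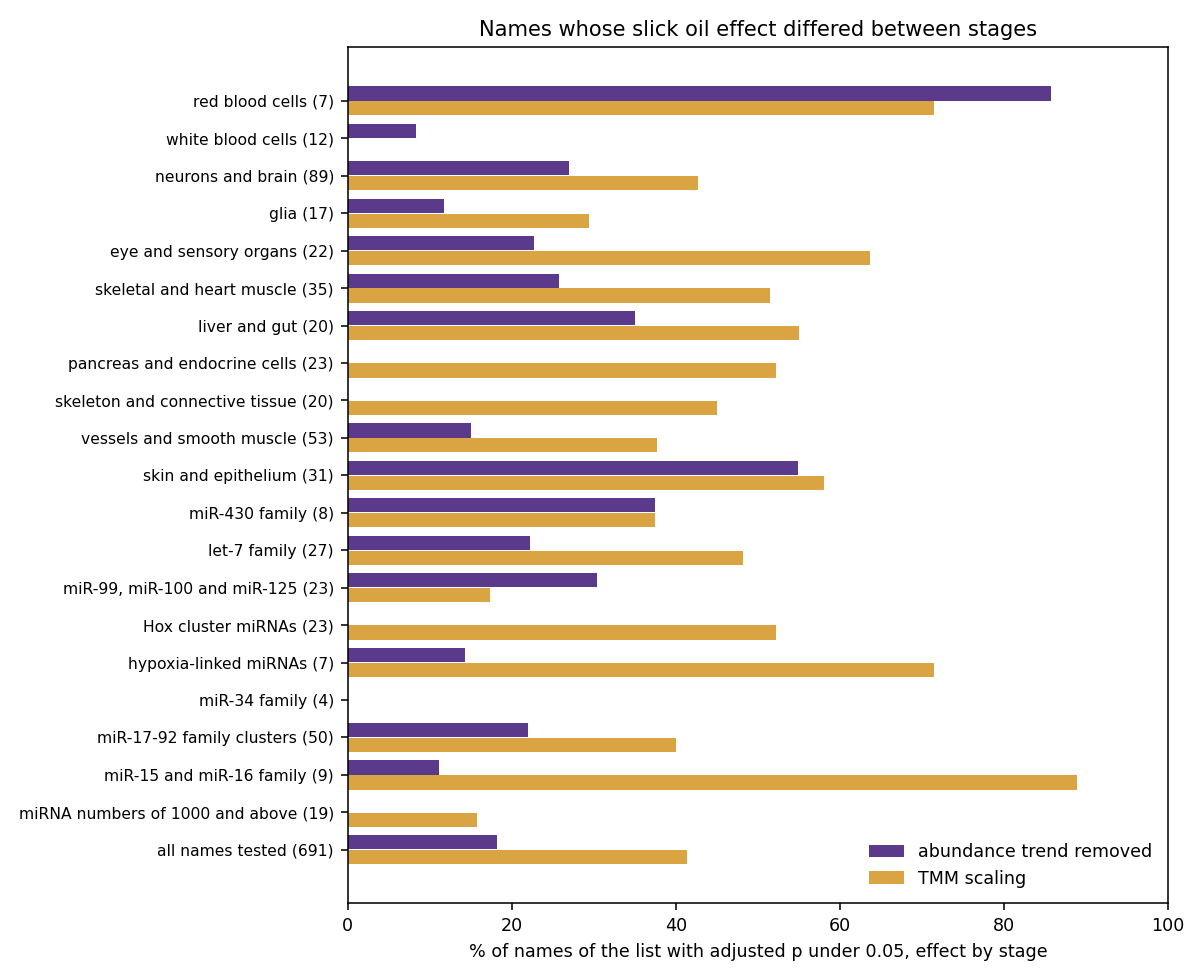
Share of each list's tested names (number in brackets) with an adjusted p under 0.05 in the joint test of effect by stage, with the abundance trend removed (purple) and with TMM scaling (orange). The bottom row gives all 691 names, at 18.2 and 41.4%, and skin and epithelium keeps a purple bar near its orange one while 3 tissue or cluster lists of 20 to 23 names have no purple bar.

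Whether the dependence on stage was particular to slick oil was asked against source oil, the crude from the well, which was tested at the same stages. Both oils share their controls, so slick was set against source libraries directly, with 9 libraries each and no control. None of 689 names (0%) differed between the oils by stage in edgeR's quasi-likelihood test, while 53 names had an unadjusted p under 0.05, and DESeq2 called none, with 8 at an unadjusted p under 0.05. Without source replicate 5 at 48 hpf 3 names passed, let-7b, let-7b-5p and miR-146a-3p, chosen here after their values were seen. miR-9-3p had the lowest unadjusted p among the names described above (0.000509, adjusted p = 0.189), with a slick minus source difference that was 0.31 ± 0.07 higher at 48 than at 24 hpf. For miR-15c-5p the slick minus source difference changed by -0.08 ± 0.22 from 24 to 96 hpf. It changed by -0.31 ± 0.16 for miR-122-5p, -0.22 ± 0.14 for let-7g and -0.45 ± 0.17 for miR-212-5p. A test that misses the threshold does not show that the oils act alike at each stage.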

How the data were processed

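Small RNA libraries (NEBNext kit, NextSeq) were made from pools of 30 animals, per the labels' protocols. The authors deposited, for each stage, a table of counts per miRNA name and library, with a log2 fold change, p-value and adjusted p-value, and DESeq2 is the tool named in the submitters' processing notes. How reads were aligned, to which miRNA set, and how they were counted is not given in the sources used here. Per-library columns hold whole numbers, which were taken here as read counts. The values do not settle whether they are unaltered, since most replicate pairs agreed more closely than independent sampling of reads would give.

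The tables were joined by name. Names that passed filterByExpr (minimum count 10) were fitted in R 4.3.3 with edgeR 4.0.16 (TMM, quasi-likelihood test, 6 groups in 1 fit), with tests of both interaction terms jointly and of each difference between stages, and p-values were adjusted by Benjamini-Hochberg over all names tested. Alternatives used DESeq2 1.42.0, other scalings (cyclic loess on log counts, limma 3.58.1, span 0.7), filters, merged names, thinning and left-out libraries. For the authors' deposited fits, the deposited effects were compared between stages by a chi-square test weighted by their deposited SE. The code was tested on simulated data. The members and lists were chosen with earlier results of these data known. Named were the 24 called miRNA numbers with the widest range of stage effects at a mean of at least 30, up to 3 called per list, up to 6 with opposite directions and a set of well-known miRNAs. Fewer are given here, and names chosen after their values were seen are marked as such, except miR-430c-3p and the other names of miR-430, miR-125a and miR-122-3p. Levels are TMM-normalised counts per 70000.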

Additional observations from a re-analysis of the deposited data

Results flagged for a closer look

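The slick oil effect differed between stages, in edgeR's quasi-likelihood test of the difference itself, for 286 of 691 names. Among the miRNAs described, those with the lowest adjusted p-values in the joint test had 1.16e-05 for let-7a-5p, 1.41e-05 for miR-122-5p, 1.41e-05 for miR-206, 1.41e-05 for miR-183, 1.63e-05 for let-7g, 1.63e-05 for miR-128a, 1.72e-05 for miR-184, 1.72e-05 for miR-724-5p, 1.77e-05 for miR-212-5p, 2.54e-05 for miR-9-3p, 3.92e-05 for miR-132a and 6.86e-05 for miR-182. The next group had 0.000171 for miR-106a-5p, 0.000172 for miR-181a, 0.000363 for miR-15c-5p, 0.000549 for miR-21, 0.000818 for miR-454b, 0.00198 for miR-194a-5p, 0.00223 for miR-124a-3p, 0.00223 for miR-222a-3p, 0.00273 for miR-451-5p, 0.00359 for miR-210-5p, 0.00398 for miR-430d and 0.00429 for miR-93. The remaining names past the threshold had 0.00508 for miR-462, 0.00658 for miR-430b, 0.00659 for miR-203b-5p, 0.00853 for miR-143-5p, 0.00914 for miR-219, 0.00982 for miR-133b-3p, 0.0113 for miR-499-5p, 0.0125 for miR-204-5p, 0.0201 for miR-125a-5p, 0.0211 for miR-365, 0.0293 for miR-144-5p and 0.0302 for miR-205. The name miR-210 had 0.0464. Of these, miR-132a, let-7a-5p and miR-125a-5p matched other names at different stages, so their p-values describe a name and not a single mature strand. That of miR-9-3p also describes a name, since miR-9b-5p, labelled for the other strand, had nearly the same counts throughout. With the abundance trend removed the joint test no longer passed for miR-462, miR-143-5p, miR-206, miR-183, miR-182, miR-21, miR-499-5p, miR-204-5p and miR-210. No explanation of these differences was tested.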

How the results depend on the processing

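Shares of the names tested that passed moved by over 1.5 times, as a count or as a share, under the settings listed here, and the causes were not tested, though fewer names entered some of them. The share past the joint test, 41.4%, was 17.7 with DESeq2, 18.2 with the abundance trend removed, 23 without a filter, 33.6 at a mean count of at least 50, 26.2 with names within 5% merged, 26.2 after thinning, 27.4 with slick replicates 1 and 2 at 24 hpf as 1 sample, 15.8 from the authors' deposited fits, 15.7 with trend removal and thinning and 14.2 with trend removal and merging. For the difference between 48 and 24 hpf the 1.88% became 0.724 with DESeq2, 3.18 with the abundance trend removed, 0.587 without a filter, 5.64 at a mean count of at least 50, 0.481 with names within 5% merged, 1.22 with all 27 libraries, 1.25 with slick replicates 1 and 2 at 24 hpf as 1 sample, 0 from the authors' deposited fits and 1.20 with trend removal and merging. Between 96 and 48 hpf the 34% became 11.9 with DESeq2, 21.4 by total count, 10.3 with the abundance trend removed, 16.5 without a filter, 25.1 at a mean count of at least 50, 22.5 with identical names merged, 20.4 with names within 5% merged, 19.5 after thinning, 21.6 with slick replicates 1 and 2 at 24 hpf as 1 sample, 16.4 from the authors' deposited fits, 6.73 with trend removal and thinning and 7.69 with trend removal and merging. Between 96 and 24 hpf the 33.3% became 17.5 with DESeq2, 19.0 with the abundance trend removed, 20.2 without a filter, 30.5 at a mean count of at least 50, 22.6 with names within 5% merged, 22.3 after thinning, 12.9 from the authors' deposited fits, 14.2 with trend removal and thinning and 14.2 with trend removal and merging. The share past the threshold at 24 hpf, 37.9%, was 37.0 with names within 5% merged, 13.5 from the authors' deposited fits and 38.9 with trend removal and merging. That at 48 hpf, 39.5%, was 21.7 with DESeq2, 24.8 without a filter, 36.4 at a mean count of at least 50, 39.2 with names within 5% merged, 19.8 from the authors' deposited fits and 40.6 with trend removal and merging. That at 96 hpf, 62.4%, was 59.0 at a mean count of at least 50, 54.8 with names within 5% merged and 50.2 with trend removal and merging. Names of opposite direction, 4.92%, were 0.434 with DESeq2, 3.04 by total count, 1.16 with the abundance trend removed, 2.05 without a filter, 2.31 at a mean count of at least 50, 2.13 with identical names merged, 2.16 with names within 5% merged, 1.61 after thinning, 2.35 with slick replicates 1 and 2 at 24 hpf as 1 sample, 1.02 with trend removal and thinning and 1.20 with trend removal and merging. DESeq2 gave no adjusted p in the joint test for 201 of the 691 names, miR-132a, miR-451-5p, miR-143-5p and miR-34a among them. Its joint share of 17.7% is of all 691 names and counts these as not passing.

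When 1 library was left out the shares moved as follows. The joint share lay between 25.1 and 39.7%, with 27.1 and 25.1 without control replicates 7 and 8 at 96 hpf. The difference between 48 and 24 hpf lay between 0 and 2.81%, with 0, 0 and 2.80 without slick replicates 1, 2 and 3 at 24 hpf, 0.982 without control replicate 2 at 24 hpf, 0.421 without slick replicate 5 at 48 hpf and 0 and 2.81 without control replicates 4 and 6 at 48 hpf. That between 96 and 48 hpf lay between 17.1 and 33.4%, with 21.9 without control replicate 3 at 24 hpf, 21.7, 22.3 and 19.9 without slick replicates 4, 5 and 6 at 48 hpf, 17.1 and 20.4 without control replicates 4 and 5 at 48 hpf, 19.1 without slick replicate 9 at 96 hpf and 20.6 and 17.5 without control replicates 7 and 8 at 96 hpf. That between 96 and 24 hpf lay between 20.3 and 34.5%, with 21.1 without slick replicate 1 at 24 hpf and 20.3 without control replicate 8 at 96 hpf. The share at 24 hpf lay between 28.6 and 40.3%. The share at 48 hpf lay between 24.9 and 39.3%, with 24.9 and 25.9 without control replicates 4 and 5 at 48 hpf. The share at 96 hpf lay between 48.9 and 61.6%. The share of opposite direction lay between 1.54 and 4.90%, and was at most 3.09% without any library other than slick or control replicate 3 at 24 hpf, slick replicate 4 or control replicate 6 at 48 hpf. With the trend removed the joint share lay between 9.10 and 20.0%, lowest without control replicate 8 at 96 hpf. Of 18 such fits the joint call was lost in 7 for miR-210-5p, 6 for miR-724-5p, 4 each for miR-219, miR-194a-5p and miR-125a-5p, 3 for miR-124a-3p, 2 for miR-203b-5p and 1 each for miR-205, miR-222a-3p and miR-365.

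Replicate numbers were not taken to pair the samples over the 3 stages, since correlations of deviations between slick and control libraries of 1 number were -0.24 to -0.044 at 24 hpf and -0.026 to 0.13 at 48 hpf. At 96 hpf all 3 were positive, from 0.14 to 0.16. With the replicate block as an alternative the joint test passed for 290 names, the 96 hpf effect for 62.8%, the difference between 48 and 24 hpf for 3.33%, and slick and source oil differed by stage for 0.290%. The block also brought the joint test of miR-133a (adjusted p = 0.0471) and the difference between 48 and 24 hpf of miR-212-5p (adjusted p = 0.0478) past the threshold, and took the 48 hpf effect of miR-9-3p (adjusted p = 0.0760) out. For miR-133a the block was not alone, since its joint test passed in 12 of the 16 alternatives. Without the block the share of slick against source oil was 0, and lay between 0 and 0.429% when 1 library was left out.

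Directions of named miRNAs turned in 18 cases. The difference between 96 and 24 hpf of miR-181a, -0.03, was 0.37 with the trend removed, 0.44 with thinning added and 0.43 with merging added. That of miR-9-3p, -0.27, was 0.22, 0.21 and 0.30 in the same order, and that of miR-21, -0.38, was 0.051, 0.0020 and 0.10. The 96 hpf effect of miR-182, -0.20, was 0.10 with the trend removed, 0.12 with thinning, 0.10 with merging and 0.0063 at a mean of at least 50. That of miR-206, -0.39, was 0.015 with the trend removed and 0.020 with merging. With trend removal and merging the 48 hpf effects of miR-9-3p and miR-183 were -0.051 and -0.15, against 0.17 and 0.05, and the 24 hpf effect of miR-21 was -0.16, against 0.01. Depth limits names near the filter, such as miR-451-5p at 24 hpf, where the effect was -1.22 ± 0.74.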
